A study of Mus musculus with 41 samples.

Results

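The clustered histone genes encode the core histones H2A, H2B, H3 and H4 and the linker histone H1, and they lie side by side in a few gene clusters. In the count table of mouse tibia RNA, a row was taken as a clustered histone gene if its symbol began with Hist1h, Hist2h, Hist3h or Hist4h, if its biotype was protein_coding and if it held at least 41 counts summed over the 41 mice. Of 43346 rows, 68 carried such a symbol and biotype and 60 passed the count minimum: 6 genes of type H1, 13 of H2A, 17 of H2B, 11 of H3 and 13 of H4. The 8 rows under the minimum held between 0 counts (Hist1h2ba) and 39 counts (Hist1h2ab), and the lowest row above it was Hist1h1t with 45.

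All mice were female INK-ATTAC mice of a C57BL/6 background, the controls included. The INK-ATTAC transgene places a caspase 8 fusion protein under the promoter of p16Ink4a, a gene switched on in many senescent cells, so that the dimerizing drug AP20187 (AP) can kill the cells that express it. The young group held 12 mice, labelled as 6 to 12 months old and as receiving vehicle, while the study's methods give the lower end of that range for all of them. The old vehicle group held 13 mice and the old AP group 16, both treated from 20 months of age for 4 months, with AP given at 10 mg/kg. The samples were tibia diaphyses that had been centrifuged. All 8 osteocyte and 8 osteoblast markers were detected, the lowest being Fgf23 at a mean of 5.11 counts per 1000000 counts (CPM), and so were markers of muscle, erythroid cells, neutrophils and B cells.

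Most clustered histone genes are transcribed in S phase, when newly copied DNA must be packed into nucleosomes. Their messenger RNAs are unusual in that they end just after a short stem-loop in the 3′ end of the transcript, which is bound by SLBP (stem-loop binding protein), and not in a poly(A) tail. Some of these genes also yield longer transcripts that run past the stem-loop to an ordinary poly(A) signal, a form known from differentiated cells that no longer divide. Replication-independent variants such as H3f3a, H3f3b and H2afz lie outside the clusters and make polyadenylated messenger RNA throughout the cell cycle.

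The stem-loop is shown for 6 genes that the results turn on, to let the short and long transcript ends be compared. The search asked for a 5′ arm of GGNNCT, a loop of TTTN and a 3′ arm of AGNNCC on the sense strand of the GENCODE M21 transcripts (GRCm38). Capitals mark the stem-loop and lower case up to 7 bases on either side.
Hist1h1c: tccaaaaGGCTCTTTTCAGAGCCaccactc
Hist3h2a: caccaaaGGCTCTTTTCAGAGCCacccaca
Hist1h4i: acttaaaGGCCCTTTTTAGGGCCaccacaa
Hist1h2bj: atccaaaGGCTCTTTTCAGAGCCacgcaca
Hist1h2bb: acccaaaGGCTCTTTTAAGAGCCacccaca
Hist1h4m: aactaaaGGCCCTTTTCAGGGCCatc
The stem-loop of Hist1h1c, Hist3h2a and Hist1h2bj was shared by 20 of the genes. The stem-loop of Hist1h4m occurred in 7 genes, all of type H4, and that of Hist1h2bb in 6.

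Of the 60 genes, 58 had a transcript in M21. For each gene only the longest was read, a protein-coding one where there was one. This choice favours longer models, and the counts by transcript end below hold for it. Of the 58 transcripts, 38 held the stem-loop. Over all genes with a protein-coding transcript the stem-loop was found in 0.315% (69 of 21901). The annotated transcript ended within 50 bases of the stem-loop in 14 genes, among them Hist1h2bj and Hist1h2bb with 23 bases after it and Hist1h4m with 3. In 24 genes it ran further, by 840 bases in Hist1h1c (chr13:23738808-23740367), by 1643 in Hist3h2a and by 330 in Hist1h4i. An AATAAA or ATTAAA stood in the last 50 bases of 11 of those 24 transcripts and in 1 of the 14 short ones, against 72.2% of all protein-coding genes. For 20 genes the annotated transcript held no match, which says only that these letters were not in that model. Most of the histone counts fell in genes with long models, whatever part of the model the reads lay in: the 24 genes whose transcript ran on held 73.3% of them, the 20 without a match 23.8% and the 14 short ones 2.66%.

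The region before the transcription start is shown for 4 genes, to set H2B and H1 genes that were higher in old mice beside the abundant Hist1h1c. Each line holds the 150 bases before the RefSeq start (GRCm38.p6), with the CCAAT box, the motif TATAAA and the octamer ATGCAAAT in capitals in either orientation (the octamer reads ATTTGCAT in the other one). In the order printed they lie at chr13:23746584-23746733 (plus strand), chr13:22035671-22035820 (plus), chr13:21780626-21780775 (minus) and chr13:23738657-23738806 (plus).
Hist1h2bb: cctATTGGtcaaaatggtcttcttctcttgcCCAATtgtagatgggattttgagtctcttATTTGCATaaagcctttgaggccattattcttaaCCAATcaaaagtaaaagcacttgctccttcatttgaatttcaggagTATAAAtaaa
Hist1h2bk: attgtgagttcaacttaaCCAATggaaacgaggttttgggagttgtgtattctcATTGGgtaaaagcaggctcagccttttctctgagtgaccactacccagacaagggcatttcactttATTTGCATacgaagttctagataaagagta
Hist1h1b: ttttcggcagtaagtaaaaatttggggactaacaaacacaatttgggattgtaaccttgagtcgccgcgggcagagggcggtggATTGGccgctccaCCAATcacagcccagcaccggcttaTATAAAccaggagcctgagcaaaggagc
Hist1h1c: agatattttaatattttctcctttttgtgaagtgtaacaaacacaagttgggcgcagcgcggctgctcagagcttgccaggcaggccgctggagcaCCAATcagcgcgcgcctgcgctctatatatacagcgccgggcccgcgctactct
A RefSeq promoter was matched for 52 of the 60 genes. In the window from 250 bases before to 50 after the start, searched on both strands, the CCAAT box stood in 43 of 52, the motif TATAAA in 28 and the octamer in 9. The shares over all 27025 promoters were 37.9%, 14.2% and 1.75%. By type, CCAAT was found in 6 of 6 H1, 10 of 10 H2A, 15 of 15 H2B and 9 of 9 H3 promoters but in 3 of 12 H4 promoters. The octamer was found in 5 H2B and 4 H2A promoters and in none of the other types. These are counts of letters in a window and were not tested.

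Together the 60 genes took between 0.0125% and 0.0209% of a mouse's counts. Library totals ranged from 37028959 to 75942717 counts, with a median of 47774880. A few genes dominated. Hist1h1c, which encodes the linker histone H1.2, held 50.5% of all counts of the 60 genes, Hist1h2bc 14.1%, Hist2h2be 7.64%, Hist3h2a 7.09%, Hist1h2be 4.73% and Hist1h4i 3.76%. These 6 genes made up 87.8%, while 43 of the 60 had fewer than 1000 counts over all 41 mice. Per kilobase of the length given in the table, the highest mean levels were 50.3 CPM per kb for Hist1h1c and 29.8 for Hist1h2bc, followed by 7.95 for Hist1h4i and 5.07 for Hist3h2a. On the same scale the variant H3f3b stood at 105 CPM per kb, H2afz at 63.3 and the proliferation marker Mki67 at 45.8.

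**Figure D1:**
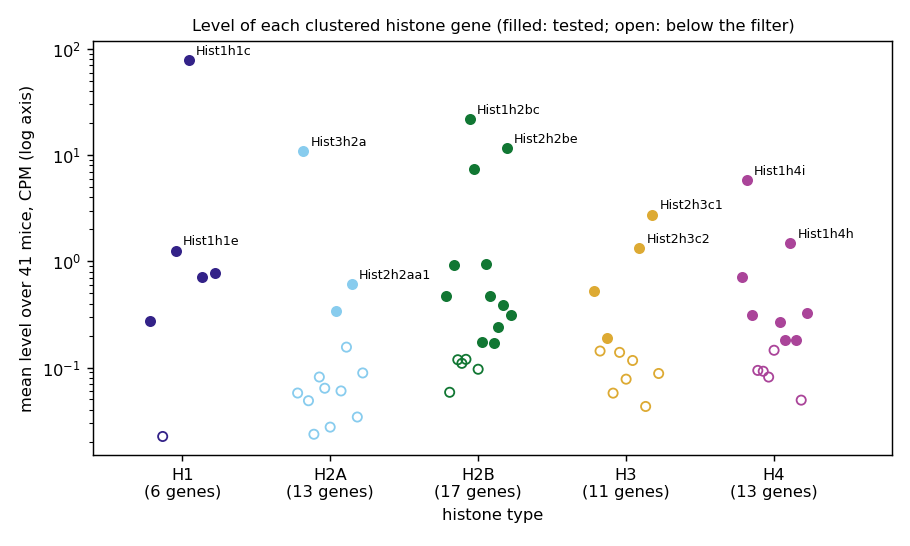
Mean level over 41 mice of each of the 60 clustered histone genes in CPM (log axis), by histone type, 1 point per gene. The filled points are the 32 genes with enough counts to be tested and the open points the 28 below the filter. The highest 2 genes of each type by total counts are named, and Hist1h1c stands at 78.4 CPM while all genes below the filter lie between 0.0224 and 0.156.

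The summed level of each type was dominated by Hist1h1c and the other abundant genes. The H1 genes summed to 86.4 ± 15.7 CPM (mean ± SD) in the 12 young, 86.9 ± 14.6 in the 13 old vehicle and 73.3 ± 15.2 in the 16 old AP mice. For H2B the sums were 50.03 ± 9.48, 46.5 ± 4.28 and 41.6 ± 7.58 CPM. For H2A they were 13.5 ± 2.28, 13.1 ± 1.92 and 11.2 ± 1.36 CPM. The groups overlapped in every type. The H3 sum was 5.81 ± 0.898 CPM in young, 5.89 ± 0.661 in old vehicle and 4.798 ± 1.32 in old AP mice, and the H4 sum was 10.8 ± 4.23, 10.5 ± 2.89 and 8.23 ± 1.48 CPM. In each of the 5 types the mean of the old AP mice was the lowest. This order did not hold for the sum of the less abundant genes: the 26 tested genes outside the 6 most abundant summed to 15.5 ± 3.69 CPM in young, 17.3 ± 2.78 in old vehicle and 16.1 ± 2.85 in old AP mice. The distance of the old AP from the old vehicle mean of a type was under 1 SD of the old vehicle mice in H1, H2A and H4 and over 1 SD in H2B and H3. No test was made of these sums. The tissue was measured in bulk, so fewer cells of a type and less RNA per cell cannot be told apart here or in the results that follow.

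**Figure D2:**
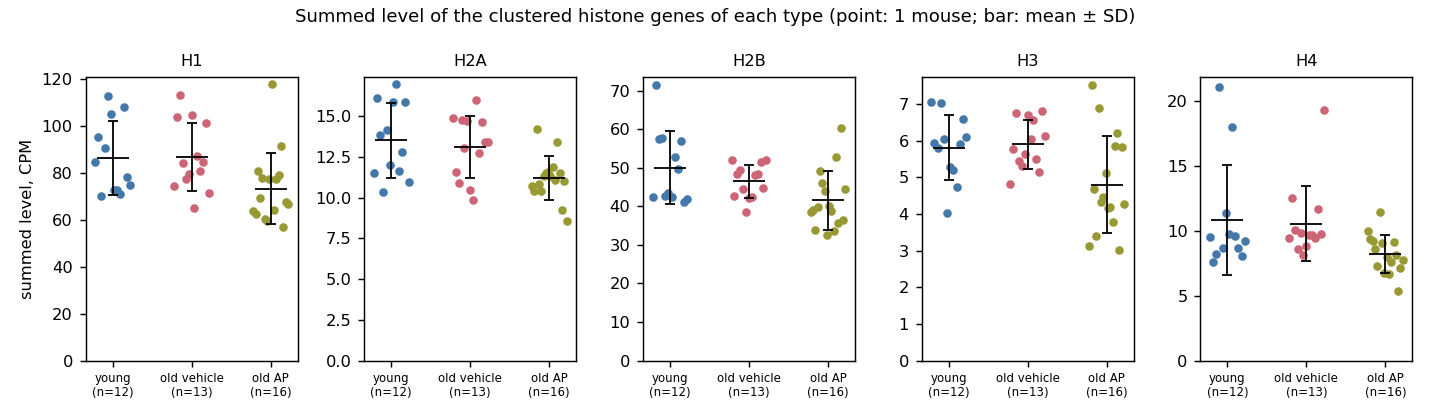
Summed level in CPM of the clustered histone genes of each type, 1 point per mouse, for 12 young, 13 old vehicle and 16 old AP mice. Horizontal marks and bars give the mean ± SD, and the y axes start at 0. The H4 sums reach 21.1 CPM in 1 young mouse and 19.3 in 1 old vehicle mouse, against at most 11.5 in old AP mice.

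For single genes, 32 of the 60 had enough counts for the test, 5 of 6 in H1, 3 of 13 in H2A, 12 of 17 in H2B, 4 of 11 in H3 and 8 of 13 in H4. The other 28 genes held between 45 and 330 counts in all. Their summed level was 2.17 ± 0.674 CPM in young, 2.44 ± 0.735 in old vehicle and 2.27 ± 0.707 in old AP mice. A gene counted as called when its adjusted p in edgeR was below 0.05 and its log2 fold change above 0.5 in size. Fold changes are given as log2 fold changes (log2FC) with their SE.

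The comparison of old vehicle with young mice asks what differs with age. Of the 32 tested genes 8 (25%) were called, and all 8 were higher in the old mice: the H2B genes Hist1h2bk, Hist2h2bb, Hist1h2bm, Hist1h2bj and Hist1h2bb, the H1 genes Hist1h1b and Hist1h1d, and the H4 gene Hist1h4d. The Hist2h2bb row is assigned to a non-coding RNA in a later annotation, as given where its values stand. Of all 19292 genes tested, 9.06% were called, 4.3% higher and 4.76% lower. The filter bears on this count. A gene was tested if at least 12 of the 41 mice reached 0.209 CPM, whatever their group, and of the 8 genes called only Hist1h1d reached it in all 12 young mice. Hist1h2bk did so in 0 young, 6 old vehicle and 7 old AP mice and Hist1h2bm in 1, 5 and 8, so both entered the test through the old mice, in which they were higher. Hist2h2bb reached it in 3 young mice, and Hist1h2bb and Hist1h2bj in 4 each. The share of 25% and the single direction are therefore given as a description. With only the 2 groups compared, 5 genes were called, against 9.89% of all genes. With no filter, 10 of all 60 genes (16.7%) were called, 9 higher and 1 lower, against 6.01% of all genes.

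Over the 32 histone genes the median log2FC was 0.06, and over all genes tested 0.01. The 8 genes that rose were all low in level. They ranked between 13 and 32 by total counts and held 2.32% of the counts of the 60 genes, so they weighed little in the sums by type. DESeq2, which also tested rarer genes, called 13 of the 60 histone genes (21.7%), 11 higher and 2 lower, against 8.76% of all genes it tested (2116 of 24165).

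The 4 largest log2FC values belonged to rows named as H2B genes, the Hist2h2bb row among them. Hist1h2bj (chr13) lay at 0.0865 to 0.390 CPM in young mice with a median of 0.160, at 0.145 to 0.940 in old vehicle mice with a median of 0.634, and at 0.236 to 1.10 in old AP mice with a median of 0.466. Of the 13 old vehicle mice, 12 were above the young median, and the ranges overlapped. The log2FC was 1.61 ± 0.30 (SE), a 3.06-fold higher level (adjusted p = 0.000244).

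Hist1h2bb showed 0.0478 to 0.401 CPM in young mice (median 0.164), 0.206 to 0.607 in old vehicle mice (median 0.448) and 0.212 to 0.945 in old AP mice (median 0.441). All 13 old vehicle mice were above the young median, and the log2FC was 1.15 ± 0.27 (adjusted p = 0.0022). Hist1h2bk lay at 0.0160 to 0.133 CPM in young (median 0.0454) and at 0.0415 to 0.607 in old vehicle mice (median 0.182), a log2FC of 1.73 ± 0.38 (adjusted p = 0.00115), and the gene was tested only through the old mice, as given above. Of the old vehicle mice 12 were above the young median. These levels rest on few reads, with a median of 2 counts per young mouse and 7 per old vehicle mouse. For Hist1h2bm the log2FC was 1.68 ± 0.47 (adjusted p = 0.00965), with 2 young mice at 0 counts, 0 to 0.222 CPM in young (median 0.0534) and 0.0302 to 0.437 in old vehicle mice (median 0.176). It too was tested only through the old mice.

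The row named Hist2h2bb had a log2FC of 1.68 ± 0.33 (adjusted p = 0.000365). Its median was 0.104 CPM in young mice (0.0463 to 0.367) and 0.481 in old vehicle mice (0.137 to 0.941), and all 13 old vehicle mice were above the young median. M21 gives the gene identifier of this row to Gm42743, a long intergenic non-coding RNA at chr3:96269721-96279001 that begins just after the RefSeq start of Hist2h2bb and overlaps Gm20628, so its reads need not come from the histone messenger RNA.

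Of the linker histones, Hist1h1b, which encodes H1.5, lay at 0.120 to 0.714 CPM in young mice (median 0.258), at 0.234 to 1.19 in old vehicle mice (median 0.664) and at 0.495 to 2.65 in old AP mice (median 1.08). The old vehicle mice stood 2.31-fold above the young mice (log2FC 1.21 ± 0.28, adjusted p = 0.0021), with 12 of 13 above the young median. Hist1h1d, encoding H1.3, rose less, with a median of 0.514 CPM in young (range 0.293 to 0.758) and of 0.833 in old vehicle mice (range 0.376 to 1.16), a log2FC of 0.64 ± 0.17 (adjusted p = 0.00679). The abundant Hist1h1c had a median of 79.5 CPM in young (68.9 to 109) and 80.6 in old vehicle mice (61.6 to 109), and its log2FC was -0.01 ± 0.10 (adjusted p = 0.968). Hist1h1e, encoding H1.4, gave 0.12 ± 0.29 (adjusted p = 0.81), and Hist1h1a, encoding H1.1, gave 0.80 ± 0.39 (adjusted p = 0.157). The 2 H1 genes called were thus among the lower ones in level.

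Hist1h4d was the least stable of the 8. Its young mice lay at 0 to 0.390 CPM (median 0.215) and its old vehicle mice at 0.0829 to 1.05 (median 0.420), with 9 of 13 above the young median. The log2FC of 1.17 ± 0.41 had an adjusted p of 0.0381, and the call was lost in 10 of 41 fits that left out 1 mouse and in 4 of 11 alternatives. The other 7 genes kept their call in all 41 such fits and in every alternative in which they were tested.

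The octamer stood in the promoters of 4 of the 8 genes called higher by age, Hist1h2bb, Hist1h2bk, Hist1h2bm and Hist2h2bb, against 3 of the 20 tested genes that were not called and had a promoter. Since only H2A and H2B promoters held the octamer, the H2B genes are also given alone: it stood in 4 of the 5 called higher, 1 of the 4 being the Hist2h2bb row, and in 1 of the 5 that were tested, had a promoter and were not called. Among those called higher, Hist1h2bk and Hist1h2bm were tested only through the old mice, in which they were higher. The differences in counts between called and not called genes were not tested.

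Of the 24 genes that were not called, Hist2h2be had the lowest adjusted p. This H2B gene, whose annotated transcript has a poly(A) signal in its last 50 bases and no stem-loop match, lay at 11.9 to 15.1 CPM in young mice (median 13.7) and at 6.18 to 12.8 in old vehicle mice (median 10.4). All 13 old vehicle mice were below the young median. The log2FC of -0.42 ± 0.09 had an adjusted p of 0.000652 but was below the fold-change threshold. The lowest fold changes belonged to H4 genes: Hist4h4 at -0.90 ± 0.34 (adjusted p = 0.0584), Hist1h4m at -0.63 ± 0.37 (adjusted p = 0.237) and Hist1h4n at -0.61 ± 0.43 (adjusted p = 0.352). Hist4h4 was called lower in DESeq2 (-0.91, adjusted p = 0.0401) and in edgeR without any 1 of 6 mice (young mouse 7, old vehicle mice 2, 4, 5 and 12, and old AP mouse 4). Hist4h4 reached the level of the filter in 7 young, 2 old vehicle and 8 old AP mice. It was thus tested in edgeR mainly through the groups in which it was higher than in old vehicle mice. The H3 gene Hist1h3d stood at -0.38 ± 0.20 (adjusted p = 0.173), and none of the 3 H2A and 4 H3 genes tested was called. Hist2h3c1 and Hist2h3c2, the highest H3 genes per kb, gave -0.19 ± 0.15 (adjusted p = 0.4) and 0.34 ± 0.21 (adjusted p = 0.284), and the H2A gene Hist2h2aa1 gave 0.11 ± 0.20 (adjusted p = 0.766). The Hist2h2aa1 row is uncertain, since 0% of the 50-base stretches of its transcript are found in no other gene and M21 gives its identifier the symbol Hist2h2aa2. Across the 6 most abundant genes the log2FC values ran from -0.42 to 0.03.

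**Figure D3:**
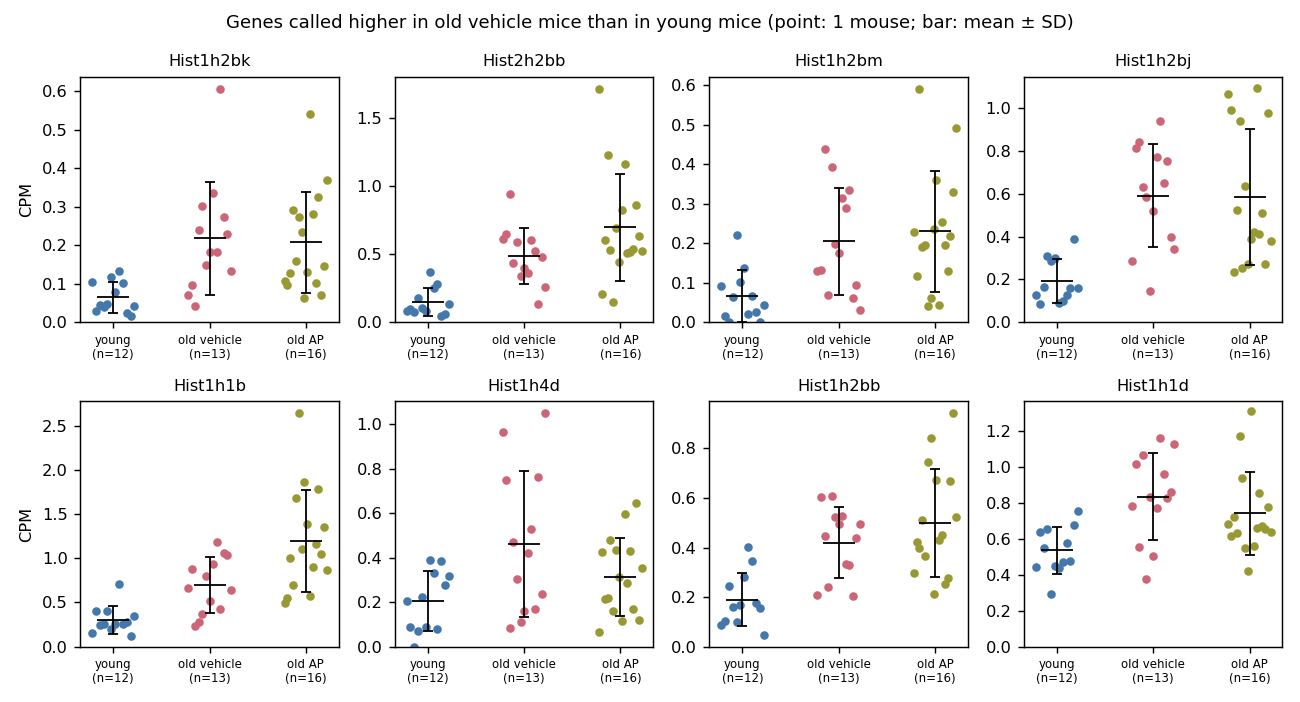
Level in CPM of the 8 genes called higher in old vehicle than in young mice, 1 point per mouse, for 12 young, 13 old vehicle and 16 old AP mice, with the mean ± SD. In each panel the ranges of young and old vehicle mice overlap, and for Hist1h2bb and Hist2h2bb all 13 old vehicle mice lie above the young median.

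The comparison of old AP with old vehicle mice asks what the drug changed. None of the 32 histone genes was called in edgeR, against 0.0726% of all genes tested (14 of 19292). At an unadjusted p under 0.05 there were 12 of 32, against 23.9% of all genes tested. DESeq2 called 1 of the 16 histone genes it gave an adjusted p, Hist1h1b, against 1.21% of all genes (202 of 16649). The 32 genes had a median log2FC of -0.09, and that of all genes tested -0.00. The genes that were higher in old vehicle than in young mice had log2FC values from -0.55 to 0.78 here. Hist1h1b had 0.78 ± 0.25 (adjusted p = 0.0761), with 13 of 16 old AP mice above the old vehicle median, and Hist1h1a had 0.83 ± 0.34 (adjusted p = 0.138). The highest values of both genes lay in libraries with high levels of S-phase and mitosis genes: old AP mice 8, 9, 10 and 12, described with those genes, held the 4 highest Hist1h1b levels of their group (1.68 to 2.65 CPM, the next being 1.39), and mice 9, 10 and 12 the 3 highest Hist1h1a levels (0.639 to 1.01 CPM). Without these 4 mice the log2FC was 0.41 for Hist1h1b (adjusted p = 0.551) and 0.41 for Hist1h1a (adjusted p = 0.71), and 0 histone genes were called, against 0% of all genes. Hist1h2bj stood at -0.00 ± 0.29 (adjusted p = 0.999) and Hist1h2bk at -0.07 ± 0.31 (adjusted p = 0.908).

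Of the 6 most abundant genes, 5 had negative log2FC values in old AP against old vehicle mice and Hist2h2be a positive one (0.14 ± 0.08, adjusted p = 0.276, medians of 11.6 and 10.4 CPM), all without passing the test. Hist1h2bc had 11.4 to 28.8 CPM in old AP mice (median 16.9) and 19.7 to 28.9 in old vehicle mice (median 22.9), a log2FC of -0.42 ± 0.12 (adjusted p = 0.0575). Hist1h1c gave -0.26 ± 0.10 (adjusted p = 0.106), Hist1h4i -0.34 ± 0.12 (adjusted p = 0.106) and Hist3h2a -0.23 ± 0.08 (adjusted p = 0.104). For Hist1h1c 14 of 16 old AP mice, and for Hist3h2a and Hist1h4i 15 of 16, were below the old vehicle median. The H4 gene Hist1h4h had -0.99 ± 0.38 (adjusted p = 0.112), and Hist4h4 had 0.89 ± 0.32 (adjusted p = 0.101). Single libraries bore on this comparison. Without old AP mouse 4, whose Hist1h1c level of 113 CPM was the highest of its group, 3 genes were called (Hist1h1b, Hist1h4h and Hist4h4). Without old AP mouse 5 Hist1h1b was called, and without old vehicle mouse 2 Hist4h4 was. The share of all genes called in these fits is not given here, so the calls are not read as particular to histone genes. Hist4h4 was tested mainly through the young and old AP mice, in which it was higher, as given above.

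The comparison of old AP with young mice, which shares its young mice with the comparison by age and its AP mice with the comparison by drug, called 10 of the 32 genes (31.2%), against 8.58% of all genes tested. Of these 7 were higher, against 3.73% of all genes called higher, and 3 were lower, against 4.85% called lower. Hist1h1b was 3.98-fold higher (log2FC 1.99 ± 0.27, adjusted p = 2.86e-06) and all 16 old AP mice stood above the young median. Hist2h2bb gave 2.20 ± 0.32 (adjusted p = 6.41e-06), Hist1h2bm 1.85 ± 0.45 (adjusted p = 0.0037), Hist1h2bk 1.66 ± 0.36 (adjusted p = 0.00146), Hist1h2bj 1.61 ± 0.29 (adjusted p = 0.000182) and Hist1h2bb 1.42 ± 0.26 (adjusted p = 0.000193). Hist1h1a, at a median of 0.119 CPM in young (0.0319 to 0.251) and 0.395 in old AP mice (0.0327 to 1.01), had 1.63 ± 0.37 (adjusted p = 0.00198). The 7 higher calls held in all 41 fits leaving out 1 mouse. Without old AP mice 8, 9, 10 and 12, 5 genes were higher and 2 lower, against 7.22% of all genes, and Hist1h1b had a log2FC of 1.62 and Hist1h1a of 1.21. Hist1h2bk and Hist1h2bm were not tested there. Of the 3 lower genes, described below, Hist1h3d kept its call and Hist1h2bc and Hist1h4h lost it. Hist1h1a reached the level of the filter in 3 young, 6 old vehicle and 13 old AP mice, and so was tested, like Hist1h2bk and Hist1h2bm, through the groups in which it was higher. The other higher genes also fell short of the 12 mice needed in the young group alone. Hist1h1b reached the level in 9 young mice, Hist1h2bb and Hist1h2bj in 4 each and Hist2h2bb in 3. The share of 31.2% is therefore given as a description. With no filter 10 of all 60 genes (16.7%) were called, 8 higher and 2 lower, against 5.52% of all genes.

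The 3 lower genes were Hist1h3d, Hist1h2bc and Hist1h4h. Hist1h3d had a median of 0.708 CPM in young mice (range 0.476 to 0.985) and of 0.328 in old AP mice (range 0.183 to 0.834), with 15 of 16 below the young median and a log2FC of -0.81 ± 0.19 (adjusted p = 0.00254). Hist1h2bc gave -0.51 ± 0.12 (adjusted p = 0.00285), at the fold-change threshold, and lost its call in 9 of 41 fits leaving out 1 mouse. Hist1h4h gave -1.05 ± 0.38 with an adjusted p of 0.0498 and lost its call in 29 of the 41. In young mice Hist1h4h ranged from 0.607 to 6.75 CPM with a median of 1.09, and in old AP mice from 0.267 to 3.04 with a median of 0.739. With DESeq2 size factors in edgeR, 7 genes were higher and 1 lower, against 8.58% of all genes, and DESeq2 itself called 12 of 57 histone genes (21.1%), 10 higher and 2 lower, against 8.68% of all genes.

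**Figure D4:**
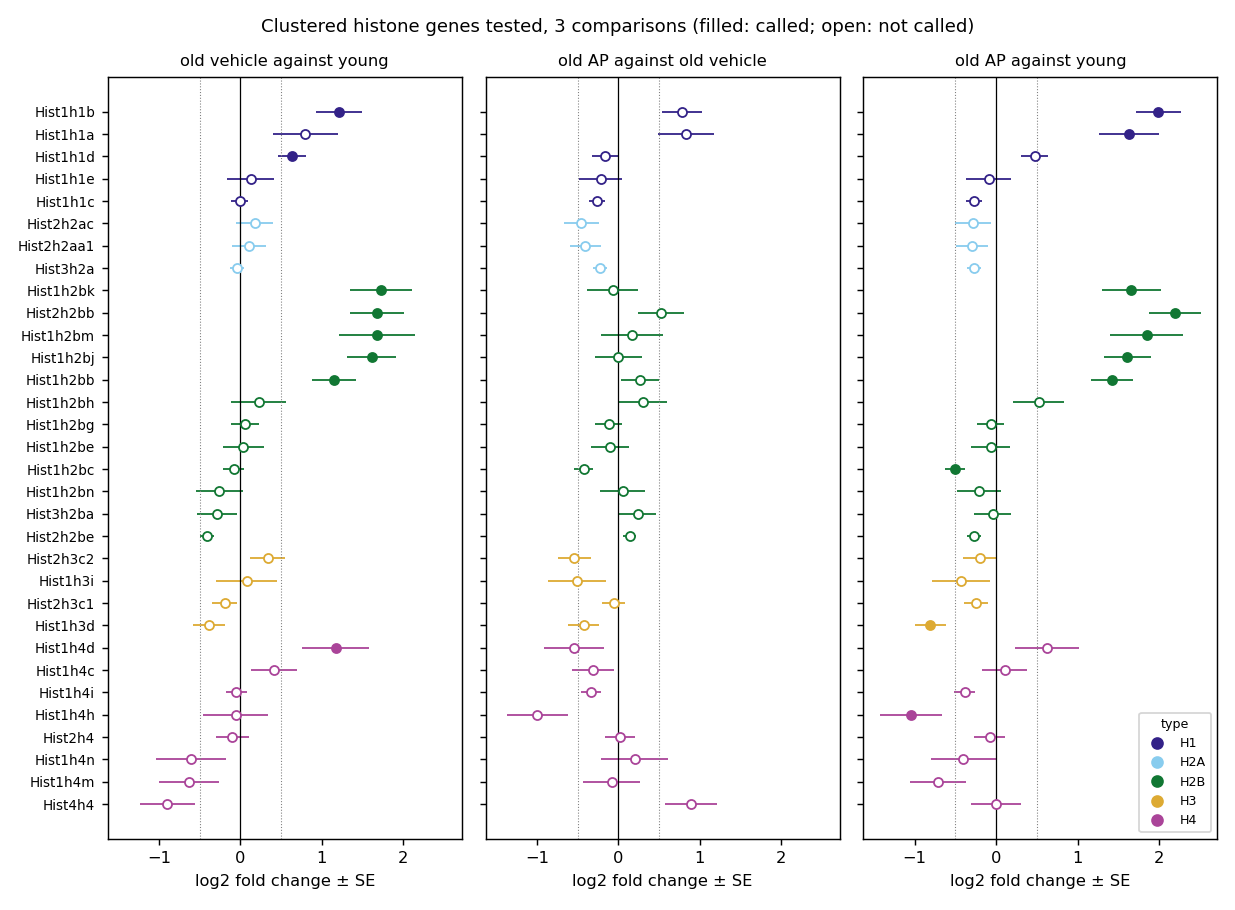
Log2FC ± SE of the 32 tested clustered histone genes in the 3 comparisons, ordered by type and then by the comparison of old vehicle with young mice. Filled points were called (8, 0 and 10 genes from left to right), open points were not, and dotted lines mark the fold-change threshold of 0.5 in either direction. The 5 H2B genes called by age lie at 1.15 or more in both comparisons with young mice, with Hist1h1b among them in both, Hist1h4d in the comparison with old vehicle and Hist1h1a in that with old AP mice.

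The genes of DNA replication and division were set beside the histones, since most clustered histone genes are transcribed in S phase. Of 20 S-phase genes (such as Pcna and the MCM helicase subunits) and 15 mitosis genes (such as Mki67 and Aurkb), 0 of 35 were called between old vehicle and young mice, with medians of 0.01 and -0.08. At an unadjusted p under 0.05 there was 1, against 31.8% of all genes, and DESeq2 called 0. In old AP against old vehicle mice 0 of 35 were called, although 20 of 20 and 15 of 15 had positive values, with medians of 0.38 and 0.47. Here 13 S-phase and 11 mitosis genes had an unadjusted p under 0.05, against 23.9% of all genes, and DESeq2 again called 0. Old AP mice 8, 9, 10 and 12 stood apart in both lists. Their S-phase sums were 1810 to 2573 CPM, while the other old AP mice reached at most 1535 and the old vehicle mice 1450. Their mitosis sums were 1948 to 3076 CPM, against at most 1686 and 1665. Young mouse 10 was also high, at 1638 CPM for S phase and 1838 for mitosis. In all, 10 of 16 old AP mice were above the old vehicle median of the S-phase sum and 11 of 16 above that of the mitosis sum. The part of these 4 mice in the medians was not tested. Mcm6 (0.58 ± 0.16, adjusted p = 0.012) and Bub1b (0.51 ± 0.18, adjusted p = 0.0491) were called higher in old AP than in young mice, and DESeq2 also called Ccnb1. Mki67 itself ranged from 273 to 704 CPM in young (median 414), from 139 to 626 in old vehicle (median 386) and from 241 to 1250 in old AP mice (median 494). With the mean log2 level of these 35 genes added to the model, 8 histone genes were called higher and 1 lower by age, against 11.1% of all genes. All 8 genes called by age without the term kept their call, and Hist1h1b, for example, had a log2FC of 1.13 (adjusted p = 0.000459). The 35 genes differed little by age, so the term could hardly move these fold changes. The part of cell division in them was not tested. In old AP against young mice the same term gave 7 higher and 2 lower genes, against 10.1% of all genes. The 7 higher genes called without it stayed called, Hist1h1a at 1.15 in place of 1.63 and Hist1h2bj at 1.17 in place of 1.61. Of the lower genes called without it only Hist1h3d stayed called. Hist1h2bc (-0.38, adjusted p = 0.00455, under the fold-change threshold) and Hist1h4h (-0.74, adjusted p = 0.119) lost their call.

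Between mice of the same group, some histone genes varied with Mki67 and some against it, as most genes of the table did. Correlations were computed over the 41 mice on log2 CPM less the group means, with a two-sided permutation test of 100000 resamples within groups, for all tested genes. With Mki67, 19 of the 32 histone genes (59.4%) had a Pearson p below 0.05 after Benjamini-Hochberg adjustment over all genes, 12 of them positive and 7 negative, against 58.5% of all genes (5223 positive and 6066 negative of 19291). At an unadjusted p the shares were 62.5% and 62.6%. The share of histone genes was thus near that of all genes, and the values below describe the genes without setting them apart.

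Among the positive genes Hist3h2ba had r = 0.67 and Spearman rho = 0.62 (unadjusted permutation p = 1e-05, the smallest that these resamples can give, and 8e-05). Hist1h1b had r = 0.56 and rho = 0.39 (permutation p = 0.00026 and 0.0138), and Hist1h2bj r = 0.56 and rho = 0.43 (permutation p = 0.00027 and 0.00678). Of the negative genes, Hist1h2bc had r = -0.62 and rho = -0.62 (permutation p = 3e-05 and 7e-05), Hist1h4h r = -0.56 and rho = -0.63 (permutation p = 9e-05 and 5e-05) and Hist1h1c r = -0.46 and rho = -0.49 (permutation p = 0.00359 and 0.00169). Adjusted over all genes, the Pearson p of these 6 lay between 5.07e-05 and 0.00734.

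Not every relation held within each group. For Hist3h2ba r was 0.76 in young, 0.41 in old vehicle and 0.78 in old AP mice, and for Hist1h2bc it was -0.70, -0.62 and -0.63. For Hist1h1b it was -0.37 in young mice against 0.68 and 0.89 in the old groups, and for Hist1h2bk -0.16 against 0.63 and 0.77. The sign was the same in all 3 groups for 8 of the 12 positive and 6 of the 7 negative genes. Without the 2 mice farthest from the median of Mki67, r was 0.65 for Hist3h2ba, 0.46 for Hist1h1b and -0.56 for Hist1h2bc. The mice share library depth and scaling in both measures of each relation.

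With Hist1h1c, 10 of 31 histone genes (32.3%) had a Pearson p below 0.05 after adjustment over all genes, 9 positive and 1 negative, against 47.5% of all genes (4588 positive and 4570 negative). At an unadjusted p the shares were 32.3% and 53.6%. Hist1h2bc followed it most closely (r = 0.84, rho = 0.81, both with a permutation p of 1e-05) with r of 0.93, 0.66 and 0.90 in young, old vehicle and old AP mice. Hist1h2be gave r = 0.74 and rho = 0.72, and Hist1h4h r = 0.73 and rho = 0.62. Hist1h3d, the H3 gene that fell in old AP against young mice, had r = 0.66 and rho = 0.57 (permutation p = 2e-05 and 0.00021). The only negative gene was Hist1h1a (r = -0.42, rho = -0.41, permutation p = 0.00928 and 0.0103), itself a linker histone gene. Adjusted over all genes, the Pearson p of Hist1h2bc, Hist1h3d and Hist1h1a was 0.000102, 0.000219 and 0.0237.

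**Figure D5:**
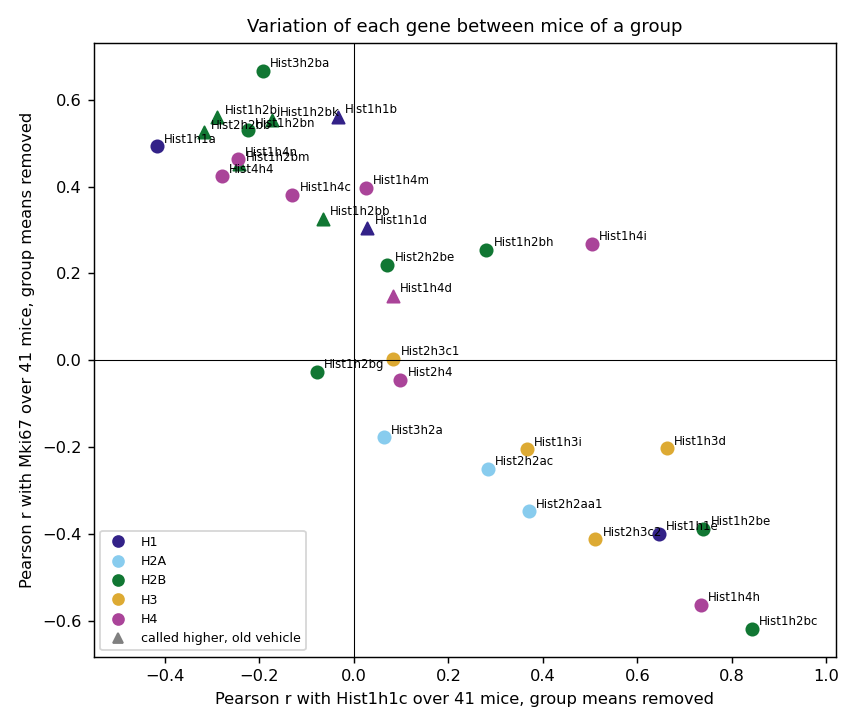
Pearson r of 31 tested clustered histone genes with Hist1h1c (x axis) and with Mki67 (y axis), each over 41 mice on log2 CPM less the group means, coloured by histone type. Triangles are the genes called higher in old vehicle than in young mice. Hist1h2bc and Hist1h4h lie at the lower right, and Hist3h2ba, Hist1h1b and Hist1h2bj at the upper left or top.

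Factors that make histone messenger RNA were examined next. Of 14 genes for histone transcription and 3′-end processing, 1 was called by age, Sympk, a scaffold of the cleavage complex (log2FC 0.53 ± 0.08, adjusted p = 1.19e-05), with 13 of 13 old vehicle mice above the young median and overlapping groups. At an unadjusted p under 0.05 there were 3 of 14 by age, 9 between old AP and old vehicle mice and 7 between old AP and young mice, against 31.8%, 23.9% and 32.2% of all genes, and 0 were called in the last 2 comparisons in edgeR and in DESeq2. Slbp had -0.14 ± 0.15 by age (adjusted p = 0.547) and 0.32 ± 0.14 in old AP against old vehicle mice (adjusted p = 0.157). Npat, the activator of histone transcription at the clusters, had -0.18 ± 0.08 (adjusted p = 0.0878) and 0.27 ± 0.07 (adjusted p = 0.0536) in these comparisons. Of 12 histone chaperones 0 were called in each comparison in edgeR and in DESeq2, with 3, 7 and 7 at an unadjusted p under 0.05 by age, between old AP and old vehicle mice and between old AP and young mice, where the shares of all genes were 31.8%, 23.9% and 32.2%. All 12 were positive between old AP and old vehicle mice, with a median of 0.20. Of 12 replication-independent variants 0 were called by age in edgeR and in DESeq2, with 1 at an unadjusted p under 0.05, H2afz having -0.01 ± 0.12 (adjusted p = 0.971), while H1fx (-0.90 ± 0.27, adjusted p = 0.0165) and H2afy2 (-0.65 ± 0.19, adjusted p = 0.0151) were lower in old AP than in young mice.

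RNAs that normally carry no poly(A) tail were rare in all groups. The summed level of the 8 such RNAs found in the table was 0.962 ± 0.291 CPM in young, 0.997 ± 0.343 in old vehicle and 0.777 ± 0.218 in old AP mice. Rmrp had a median of 0.0438, 0.0896 and 0.0220 CPM in the 3 groups, and Rpph1 0.165, 0.181 and 0.152. Only 3 of the 8 were tested, and 0 were called in edgeR and in DESeq2 in each comparison, with 0, 0 and 1 at an unadjusted p under 0.05. The mean log2 level of these 3 RNAs alone served as a covariate, among them Rnu7, which is also 1 of the 14 processing genes. With it 8 histone genes were called by age, against 8.97% of all genes. In old AP against young mice 8 were then higher and 1 lower, against 8.02% of all genes, and Hist1h4h (-0.51, adjusted p = 0.257) and Hist1h2bc (-0.42, adjusted p = 0.00627) lost their call.

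Markers of blood cells also differed between the groups. Of 10 B-lineage genes, 6 were called lower in old vehicle than in young mice (summed level 69.3 to 325 CPM against 163 to 507), and of 10 erythroid genes 3 were called lower (2056 to 11950 CPM against 5579 to 22430). Of 10 neutrophil genes 0 were called by age in edgeR and in DESeq2 (4890 to 25570 CPM against 7953 to 19200), with 4 at an unadjusted p under 0.05, and 4 were called higher in old AP than in young mice. Of 8 osteoblast genes, 3 were lower in old vehicle than in young mice (14600 to 77250 CPM against 33240 to 88130), and of 8 osteocyte genes 2 were higher and 1 lower (984 to 2246 CPM against 1067 to 1671). Of 8 muscle genes 1 was higher, Acta1 (12300 to 94770 CPM against 14140 to 80410). No marker of these lists was at 0 in all mice.

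In old AP against young mice 6 of the 8 osteoblast genes were called lower (6047 to 67640 CPM in old AP mice), as were 2 erythroid genes (2544 to 19280 CPM) and 1 B-lineage gene (96.5 to 425 CPM), and 2 osteocyte genes were higher and 2 lower (293 to 3533 CPM). The neutrophil sum was 8714 to 33510 CPM in old AP mice. Between old AP and old vehicle mice 0 genes of these 6 lists were called in edgeR, and DESeq2 called 1, Rag1. All 10 B-lineage genes were positive there, with a median log2FC of 0.49 and 5 at an unadjusted p under 0.05, and all 8 muscle genes were negative, with a median of -0.47 and 2 at an unadjusted p under 0.05 (6285 to 73090 CPM in old AP mice). Of the other lists, 3 erythroid genes and 0 of the osteocyte, osteoblast and neutrophil genes had such a p. With the erythroid level as a covariate, 10 histone genes were higher and 1 lower by age, and the share of all genes called was 11.2%. With the neutrophil level, 8 were higher and 2 lower, against 16.4% of all genes, but Hist1h4d was no longer called (log2FC 0.95, adjusted p = 0.072), and in old AP against young mice Hist1h2bc (-0.33, adjusted p = 0.0198) and Hist1h4h (-0.67, adjusted p = 0.199) lost their call. The part of the B-lineage, bone and muscle cells in the result was not tested.

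The copies of histone genes resemble each other closely, and this bears on which row a read was counted in. For the M21 transcript read for each gene, the longest one, the share of 50-base stretches found in no other gene was computed. Over 58 genes its median was 50.4%, and 5 genes had none. Among the genes that rose it was 100% for Hist1h1b, 97.7% for Hist1h1d, 89.8% for Hist1h4d, 85.7% for the Hist2h2bb row, 59.9% for Hist1h2bb, 40.6% for Hist1h2bj and 25.8% for Hist1h2bk, which shares most with Hist1h2br and Hist1h2bq. Hist1h2bm has no transcript in M21 and so no such value. The M21 transcript can be longer than the row in which reads were counted. For Hist1h1d it had 7425 bases against a table length of 744, so its 97.7% need not hold for the counted bases. The share was 91.5% for Hist1h1c and 69.4% for Hist1h2bc. Hist2h3c1 and Hist2h3c2, H3 genes that share most of their 50-base stretches, had 0% and 36.5%, so their levels cannot be assigned to 1 gene. Hist3h2a overlaps Trim17, and Hist1h2be overlaps Gm11398, in the coordinates of the table. The level of each such gene is uncertain where reads could be counted for its partner.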

How the data were processed

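Tibia RNA of 41 mice was sequenced on an Illumina HiSeq, 1 library per mouse. The submitters' processing notes name TopHat2 2.0.6, HTSeq and GRCm38. The authors deposited raw gene counts, with each gene's coordinates and length. Library preparation, strand setting and the handling of reads with several matches are not given in the sources used here. The labels list the molecule as genomic DNA, while the extraction describes RNA. No batch is labelled.

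Counts were fitted in edgeR 4.0.16 (R 4.3.3) with filterByExpr, TMM scaling and the quasi-likelihood test, 1 model of 3 groups, and Benjamini-Hochberg adjustment over the 19292 genes tested. A gene was called at adjusted p below 0.05 and a log2 fold change above 0.5 in size, the thresholds of the study. CPM are counts per 1000000 of the TMM-scaled library of tested genes. Log2 CPM used a prior count of 2. The fit was tested on simulated data with 200 changed genes. Each mouse counted as 1 replicate. No pair of mice of a group differed by as little as sampling noise. Any of the 60 genes could be named, with test values for those called, the 2 highest per kb of each type and the 5 largest and 5 smallest fold changes by age. From the other lists the genes called were named, with Slbp, Npat, Mki67, Pcna, Rmrp, Rpph1 and H2afz, and Ccnb1, Fgf23 and H3f3b were chosen after their values were seen. Members, lists and tests were chosen with earlier results of these data known. Alternatives were DESeq2 1.42.0, its size factors, library totals, no filter, only the 2 groups compared, no fold threshold, 4 covariates, no old AP mice 8, 9, 10 and 12 (this and the neutrophil covariate chosen after seeing the data) and leaving out each mouse in turn. Stem-loops were read from GENCODE M21 and promoters from RefSeq (GRCm38.p6).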

Additional observations from a re-analysis of the deposited data

How the results depend on the processing

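By age, 8 histone genes were called, 13 in DESeq2 (Hist1h2bl, Hist1h3c, Hist1h4b, Hist1h2ad and Hist4h4 in addition) and 5 with only the 2 groups compared, where Hist1h2bk and Hist1h2bm fell under the filter and Hist1h4d missed the threshold. Between old AP and old vehicle mice 0 were called in edgeR, 12 at an unadjusted p under 0.05, and 1 both in DESeq2 and with library totals only, Hist1h1b each time. Leaving out 1 mouse gave 7 to 9 calls by age, 0 to 3 between old AP and old vehicle mice and 8 to 11 between old AP and young mice. The shares of all genes called in these fits are not given here, so the ranges show only how far the counts depend on single mice. With library totals only, the median log2 fold change of all genes moved to -0.06 by age and 0.10 between old AP and old vehicle mice. The other total counts of histone genes called stayed within 1.5 times those reported. By direction, the 3 lower calls between old AP and young mice became 6 with no fold threshold and 1 with DESeq2 size factors or the nonpolyadenylated covariate. Over all genes, the 14 calls between old AP and old vehicle mice became 328 with library totals, 202 in DESeq2, 164 with the neutrophil covariate, 33 with no fold threshold and 0 with no filter, only the 2 groups, each of the other 3 covariates or without old AP mice 8, 9, 10 and 12. By age the 1748 calls became 3736 with no fold threshold and 3155 with the neutrophil covariate, and between old AP and young mice the 1655 became 3437 with no fold threshold and 2993 with the erythroid covariate. The summed levels by type moved by less than 1 SD with other scaling. Of the calls of single genes, Hist1h4d by age was lost in 4 of 11 alternatives, and Hist1h2bc and Hist1h4h in old AP against young mice in 7 of 11 each. The causes were not tested. No paired analysis was possible because the replicate numbers do not tie mice of different groups. The genes called by age had few reads per mouse, which limits the precision of single values, and the p-values measure the spread between the mice sampled.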

Other observations

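Without the filter on low counts, 4 calls were made among the 28 genes that were otherwise left out, pooled over all comparisons. In the same fit 6.01% of all genes were called by age and 5.52% between old AP and young mice. Between old AP and old vehicle mice 0 of all genes were called. The 4 calls are therefore given as a description and are not read as particular to histone genes. Hist1h3c (log2 fold change 1.79, adjusted p = 0.0147) and Hist1h4b (1.69, adjusted p = 0.0169) were higher and Hist1h2ad (-1.53, adjusted p = 0.0114) lower in old vehicle than in young mice, and Hist1h2bl (1.26, adjusted p = 0.0311) was higher in old AP than in young mice, all in edgeR. These 4 genes were named after their values were seen. Hist1h2al lies apart from the other 46 genes of chromosome 13, at chr13:51202688-51203065, and M21 lists it as a processed pseudogene.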
